A study of Mus musculus with 4 samples.

Results

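The sites described here are the positions in the mouse genome where a Meis peak and a Prep peak overlapped by at least 1 bp. They were found by chromatin immunoprecipitation followed by sequencing (ChIP-seq), in which an antibody pulls down a protein with the DNA it occupies. They took in 407 of 5686 Meis peaks (7.16% of the Meis list) and 408 of 3331 Prep peaks (12.2% of the Prep list). Together they formed 409 pairs, because 3 peaks had 2 partners each. The chromatin came from cells of dissociated trunks of C57BL/6 embryos at embryonic day 11.5, and the labels give no mutant allele and no treatment. There was 1 library with antibodies to Meis1/2 (K830, K844), 1 with an antibody to Prep1/2 (N15 Santa Cruz), and 1 input library without antibody for each. The peak names of the second list read Prep1, although its antibody is labelled for Prep1/2. A trunk holds many cell types, so a site found in both lists need not carry both proteins in the same cell.

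Meis and Prep proteins are homeodomain factors of the TALE class, marked by an extended loop in the DNA-binding domain. Both take Pbx proteins, further members of that class, as partners, and both recognise the short element TGACAG. Meis proteins are known for working beside Hox factors along the body axis, while Prep1 is widely expressed and needed early in development. A site in both lists is a place where either relative was recovered from the same short stretch of DNA.

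Each peak carries the authors' own score from their peak caller, on a scale that was not stated. Scores order peaks within a list and were never compared between lists. The sites were selected on the overlap of the called peaks, and their classes were chosen by the peak scores. Each antibody has 1 library. The values below are therefore descriptions with no test. Intervals in parentheses after a share are 95% Wilson intervals and cover the number of peaks only. Those after a median are 95% binomial intervals from ordered values, and peaks are not replicates. Read totals are unknown. Positions are in mm9 and count from 1, and they were assigned to no gene, exon or promoter because no annotation of that build was used here.

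Most shared sites had a Prep peak from the lower-scoring part of its list. Prep partners ran from 5.25 to 301 with a median of 7.88. In 268 pairs the Prep score was below 10.5 (called Prep low) and in 141 it was 10.5 or more (Prep high). The second number is 34.5% of the pairs (30.0 to 39.2%), beside 51.6% of all Prep peaks. The most frequent score of the Prep list, 5.25, was also that of 82 pairs (20.05%, 16.5 to 24.2%), beside 14.7% of all Prep peaks, and 8 peaks of the whole list scored less. Prep signal weaker than the floor of the list would not be listed.

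Meis partners ran from 8.61 to 71.3 with a median of 14.2. A Meis peak was called Meis high when it was in the highest-scoring 10% of its list, at a score of 17.9 or more. With equal scores counted in, 585 peaks met this, which is 10.3% of the list. Of the pairs, 149 were Meis high (36.4%, 31.9 to 41.2%). Crossing the classes gave 40 pairs that were high in both lists, 109 with a high Meis and a low Prep score, 101 with a high Prep and a low Meis score, and 159 that were low in both.

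**Figure D1:**
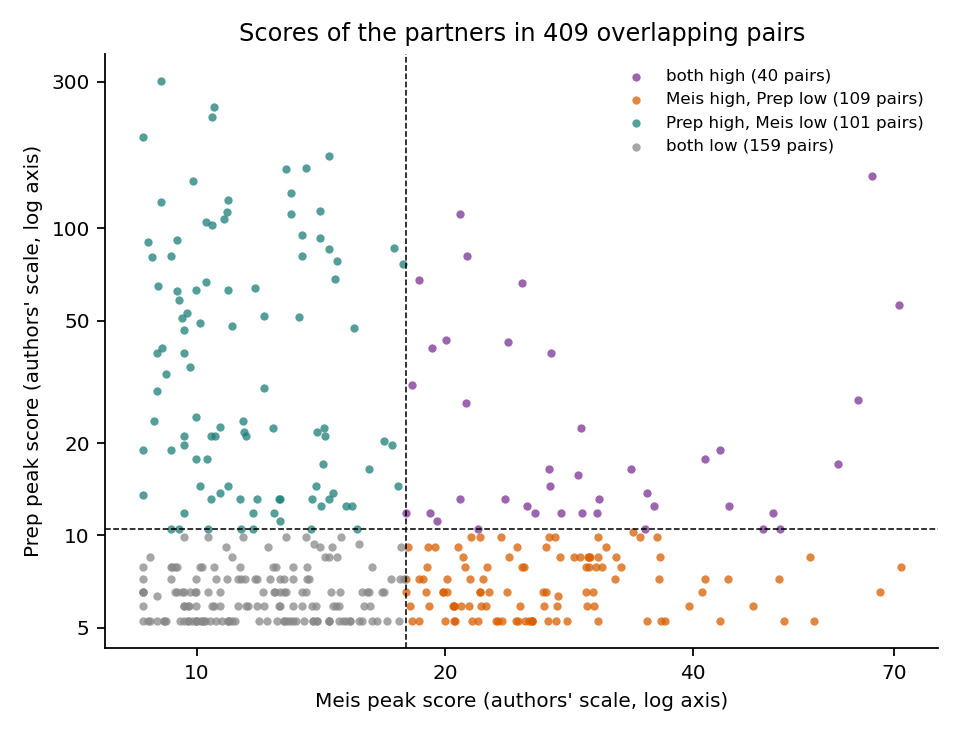
Each point is 1 of the 409 pairs, with the score of its Meis peak on the x axis and of its Prep peak on the y axis (authors' scales, log axes). Dashed lines mark a Meis score of 17.9 and a Prep score of 10.5, and the upper right field holds 40 pairs against 109 below it.

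Partners of either Prep class had Meis scores of much the same range. Median Meis scores were 14.9 (13.9 to 16.5) in the 268 Prep low pairs and 13.0 (11.7 to 14.2) in the 141 Prep high pairs. Median Prep scores were 7.88 in the Meis high pairs and 7.88 in the Meis low pairs, but the upper quartiles were 10.5 and 19.9. Above the median, the Prep scores of the Meis low pairs thus reached further up. Spearman's coefficient of the scores was -0.08 over the 409 pairs, -0.30 within the 141 Prep high pairs and 0.16 within the 268 Prep low pairs. All points share the same pair of libraries, and these coefficients describe peaks and not samples.

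Few pairs lay next to the Prep threshold. The 11 pairs at 10.5, just above it, had Meis scores from 9.30 to 51.0 with a median of 13.7. The 1 pair just below, at 10.3, had a Meis score of 33.8. Within 1 unit below the threshold lay 15 pairs with a median Meis score of 22.1, and within 1 unit above it 13 pairs with a median of 13.7.

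Both kinds of Prep partner became more frequent towards the top of the Meis list, the low ones more so. In the highest-scoring 10% of Meis peaks, 109 of 585 had a Prep low partner (18.6%, 15.7 to 22.0%) and 40 a Prep high partner (6.84%, 5.06 to 9.18%). Among the other 5101 Meis peaks, 159 had a Prep low partner (3.12%, 2.67 to 3.63%) and 99 a Prep high partner (1.94%, 1.60 to 2.36%). The share with a low partner was thus 5.98 times as large at the top of the list, and the share with a high partner 3.52 times. In the lowest-scoring 10% of the Meis list 9 and 4 of 568 peaks had such partners (1.58 and 0.704%).

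**Figure D2:**
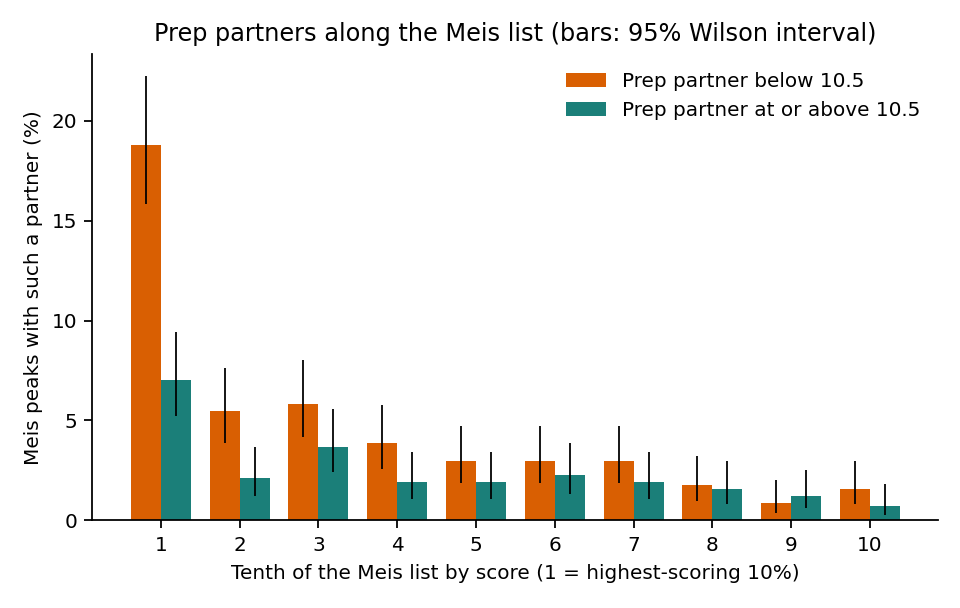
Meis peaks were ordered by score and divided into 10 slices of 568 or 569 peaks (x axis). Bars give the percentage with an overlapping Prep peak below 10.5 or at or above 10.5, with 95% Wilson intervals; the first slice stands at 18.8 and 7.03%, and the second at 5.45 and 2.11%.

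Seen from the Prep list, strong Meis partners were concentrated around and below its middle. Of the 1719 Prep peaks at or above 10.5, 40 met a Meis high peak (2.33%, 1.71 to 3.15%) and 101 another Meis peak (5.88%, 4.86 to 7.09%). Of the 1612 Prep peaks below it, 109 met a Meis high peak (6.76%, 5.64 to 8.09%) and 158 another one (9.80%, 8.44 to 11.3%). In 10 slices of the Prep list by score, a Meis high partner was found for 1 of 334 peaks in the first slice (0.299%) and for 30 of 333 in slice 6 (9.01%, 6.38 to 12.6%). In the last slice it was 19 of 333 (5.71%, 3.68 to 8.74%).

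The 40 pairs high in both lists had the smallest median centre distance, 19.5 bp (13 to 26 bp), with an interval that overlapped those of the kinds high in one list. In 26 of them (65.0%, 49.5 to 77.9%) the centres were within 25 bp, in 3 they were over 100 bp apart, and in 4 less than 50% of the shorter peak was covered. For the 109 pairs with a high Meis and a low Prep score the last counts were 6 and 0. The 6 strongest by the weaker of their places were the following, a place being the position in a list by score with 1 the highest. On chromosome 9 the Meis peak at chr9:61218275-61218434 scored 65.8 (place 5) and met a Prep peak at chr9:61218292-61218452 with 147.7 (place 189). On chromosome 19 the Meis peak at chr19:5688928-5689093 scored 20.8 (place 346), and its partner at chr19:5688841-5689003 scored 111 (place 353). These were the only pairs with a Meis high peak and a Prep score of 100 or more. On chromosome 10 the Meis peak at chr10:81033733-81033889 scored 21.3, its partner at chr10:81033727-81033885 scored 81.4, and their centres were 5 bp apart. On chromosome 2 the peaks at chr2:128955492-128955751 (Meis, 18.6) and chr2:128955401-128955566 (Prep, 67.6) were 138 bp apart at their centres and shared 75 bp. This pair, and that on chromosome 19 with 88.5 bp between its centres, were far apart for this kind. On chromosome 9 a Prep peak at chr9:121619240-121619424 (66.3) lay wholly inside a Meis peak at chr9:121619237-121619438 (24.8). On chromosome 15 the third Meis peak of the list, at chr15:103135727-103135883, scored 70.9. Its partner was the Prep peak at chr15:103135734-103135922 with 56.5, at a centre distance of 23 bp. That Prep partner held place 701 of 3331.

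The 109 pairs with a high Meis and a low Prep score contained most of the strong Meis peaks that had any partner. In all of them the Prep peak was the wider one, and in 72 (66.1%, 56.8 to 74.3%) it covered the Meis peak completely. This was not particular to the kind. Of the 159 pairs low in both lists, the Prep peak was wider in 157 and covered the Meis peak completely in 97. On chromosome 4 the Meis peak at chr4:150132706-150132887, with 71.3 the strongest of all shared sites, lay inside a Prep peak at chr4:150132653-150132899 with a score of 7.88. On chromosome 2 the Meis peak at chr2:115456977-115457139 scored 67.3 and lay inside a Prep peak at chr2:115456970-115457286 with 6.57. On chromosome 3 the Meis peak at chr3:108085442-108085624 (56.0) and the Prep peak at chr3:108085394-108085672 (5.25) had the same centre. In this last pair a Meis peak at place 9 met a Prep peak at the most frequent score of its list. On chromosome 11 the Meis peak at chr11:98830055-98830228 scored 55.5, and its partner at chr11:98830069-98830336 scored 8.54. On chromosome 3 the Meis peak at chr3:127577287-127577472 scored 51.5, and its partner at chr3:127577238-127577471 scored 5.25. On chromosome 18 the Meis peak at chr18:84254048-84254207 scored 50.8, and its partner at chr18:84253996-84254325 scored 7.22. None of these 6 Prep partners was above place 1905 of 3331, while their Meis peaks held places 2 to 13.

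Among the 101 pairs with a high Prep and a low Meis score, the 3 with the highest Prep scores met only near their edges. Less than 50% of the shorter peak was covered in 11 of the 101. The share was similar among the 40 pairs high in both lists, with 4. On chromosome 19 the Prep peak at chr19:12040010-12040204, with 301 the sixth of its list, shared 7 bp with a Meis peak at chr19:12039756-12040016 that scored 9.05. On chromosome 11 the Prep peak at chr11:96839081-96839237 scored 248 and shared 32 bp with a Meis peak at chr11:96839206-96839367 that scored 10.5. On chromosome 9 the Prep peak at chr9:4376374-4376534 scored 230 and shared 31 bp with a Meis peak at chr9:4376217-4376404 that scored 10.5. The centres of these 3 pairs were 221, 127.5 and 143.5 bp apart. On chromosome 14 the Prep peak at chr14:22319914-22320070 scored 198 and shared 89 bp with a Meis peak at chr14:22319982-22320149 that scored 8.61. The next pairs were centred closely instead. On chromosome 9 a Prep peak at chr9:22030041-22030211 (171) lay inside a Meis peak at chr9:22029991-22030211 (14.5). On chromosome 17 a Prep peak at chr17:31701736-31701874 (157.6) lay inside a Meis peak at chr17:31701717-31701884 (13.6), with centres 4.5 bp apart.

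The 159 pairs low in both lists were the most numerous with the Meis split at the highest-scoring 10%. With that split at the highest-scoring 50% they numbered 56, and the pairs with a high Meis and a low Prep score led with 212. The median centre distance of the 159 pairs was 34 bp (26 to 41 bp), and 12 of the 159 (7.55%) had centres over 100 bp apart. Meis scores of the 159 pairs had a median of 12.0 and their Prep scores a median of 5.91, and 55 of their Prep partners scored 5.25. Of their 6 strongest, 5 had a Prep score of 9.85 and 1 had 9.41. The first was chr19:6532293-6532474 (Meis, 14.96) with chr19:6532154-6532448 (Prep, 9.85). It was followed on chromosome 13 by chr13:55724303-55724522 (Meis, 13.6) with chr13:55724331-55724602 (Prep, 9.85). On chromosome 4, chr4:45178468-45178576 (Meis, 12.8) lay within chr4:45178455-45178733 (Prep, 9.85). On chromosome 3, chr3:104565410-104565487 (Meis, 11.4), the narrowest shared Meis peak at 78 bp, lay within chr3:104565394-104565672 (Prep, 9.85). The other two were chr6:70747905-70748107 (Meis, 10.3) with chr6:70747928-70748230 (Prep, 9.85), and chr16:37964226-37964378 (Meis, 15.7) with chr16:37964137-37964380 (Prep, 9.41). Centres of the 6 pairs were between 43.5 and 84.5 bp apart, all above the median of the kind.

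**Figure D3:**
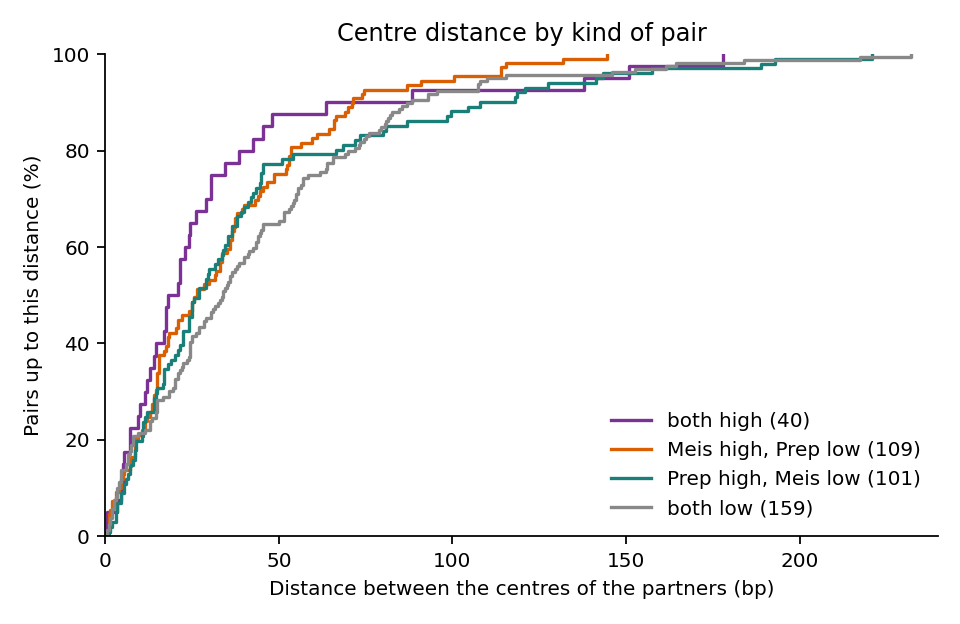
The curves give, for each kind of pair, the percentage of pairs (y axis) whose centres lay no farther apart than the distance on the x axis in bp. At 25 bp the curve of the 40 pairs high in both lists stands at 65.0%, that of the 159 low in both at 41.5%, and those of the other kinds at 48.6 and 48.5%.

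Over all pairs, the median centre distance was 28.5 bp (24.5 to 32.5 bp). For the 4 kinds the medians were 19.5, 26.5 (high Meis, low Prep), 27 (high Prep, low Meis) and 34 bp. The intervals of the middle kinds, 18 to 36 and 22.5 to 34.5 bp, lay largely within each other. In 208 pairs (50.9%) the Meis peak lay wholly inside the Prep peak, in 23 the Prep peak lay inside the Meis peak, and 178 were staggered. The Meis peak was wholly inside in 169 of 268 Prep low pairs (63.1%, 57.1 to 68.6%) and in 39 of 141 Prep high pairs (27.7%, 20.9 to 35.6%). The Prep peak was inside the Meis peak in 0 Prep low and 23 Prep high pairs (16.3%). Which peak can lie inside the other depends on their widths, so these shares are not separate from the width of the Prep peaks. Spearman's coefficient of Prep score with Prep width was -0.77 over the 409 pairs. Prep-only peaks were also narrower at high scores, with medians of 304 bp at 5.25 and 166 bp from 97.2 upwards. Prep partners had a median width of 284 bp in Prep low and 210 bp in Prep high pairs, while Meis partners measured 196.5 and 197 bp.

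The covered share of the shorter peak was much the same from a Prep score of 5.25 up to 100. Above that its median was lower, with a wide interval. The overlap in bp fell through the classes, with medians of 192, 183.5, 181.5, 157.5 and 119 bp in rising order of Prep score. The median share of the shorter peak covered by its partner was 100% in the 82 pairs at 5.25 and 100% in the 186 pairs from there to 10.5. It was 98.5% in the 90 pairs up to 43.3, the upper quartile of the Prep list, and 97.4% in the 32 pairs from there to 100. In the 19 pairs with a Prep score of 100 or more it was 64.0% (40.8 to 100%). In these last pairs less than 50% of the shorter peak was covered in 7 (36.8%, 19.1 to 59.0%), against 3 of 82, 3 of 186, 5 of 90 and 3 of 32 in the classes below. Median centre distances in rising order of Prep score were 36.75 (26.5 to 44.5), 28.5 (22 to 34), 24 (18 to 29), 19.5 (9 to 34) and 73.5 bp (25 to 108 bp). Neighbouring classes among the first 4 had overlapping intervals. The shares of pairs with centres over 100 bp apart were 8.54, 5.91, 5.56, 12.5 and 31.6%, and Spearman's coefficient of Prep score with centre distance was -0.07 over the 409 pairs. Of the 19 pairs, 2 share 1 Meis peak, and their Prep peaks were narrow, with a median of 163 bp against 175 bp in the class below. The part of width in this was not tested.

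**Figure D4:**
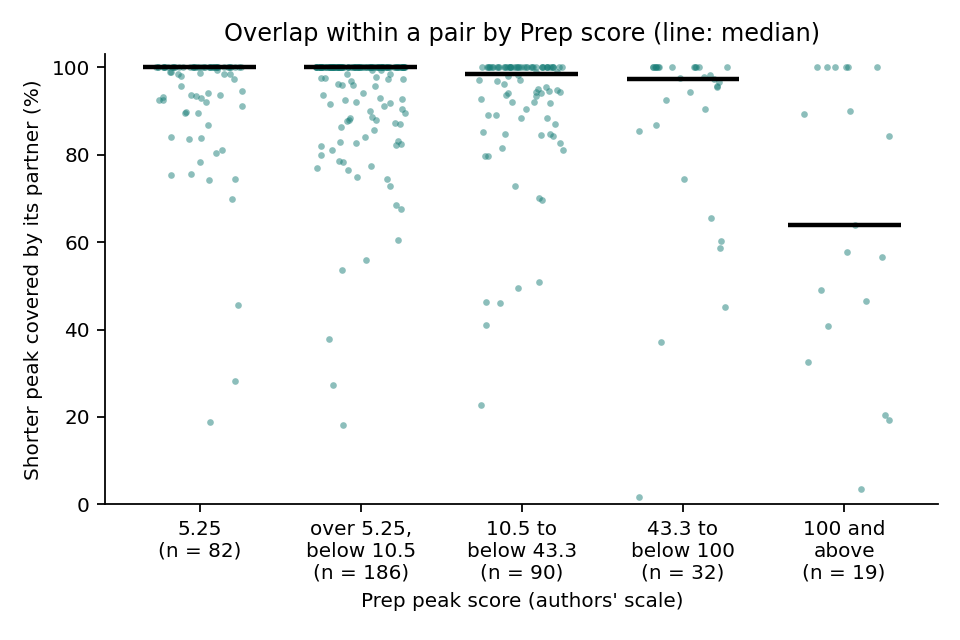
Each point is 1 pair, placed by the class of its Prep score (x axis, authors' scale) and by the percentage of the shorter peak that its partner covers (y axis); horizontal position within a class is arbitrary and lines are medians. The medians of the first 4 classes lie between 97.4 and 100%, and that of the 19 pairs at 100 or more is 64.0%.

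In the pairs with a Prep score of 100 or more, the Meis high share and the median Meis score were close to those of the whole Meis list. Of the 19, 2 were Meis high (10.5%, 2.94 to 31.4%), beside 10.3% of all Meis peaks. In the other classes, by falling Prep score, it was 5 of 32 (15.6%), 33 of 90 (36.7%), 82 of 186 (44.1%) and 27 of 82 (32.9%). The median Meis score of the 19 pairs was 10.9 (10.3 to 13.6), close to the 10.7 of the whole Meis list. For the other classes in the same order it was 11.9, 14.2, 15.9 and 14.2. The intervals of these last 3 medians, 12.4 to 16.9, 13.95 to 18.0 and 12.7 to 15.8, overlapped.

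The limit of 1 bp divided few sites. Of the Meis peaks, 187 had the nearest Prep centre less than 25 bp away, 111 at 25 to under 50 bp, 54 at 50 to under 75 bp and 24 at 75 to under 100 bp, and all of these were shared. From 200 to 300 bp there were 6, of which 2 were shared, and from 300 to 400 bp 10, of which 0 were. Per 100 bp this is 748 Meis peaks in the first step and 6 from 200 to 300 bp, beside 1.9 at 5 to 10 kb. The smallest overlap was 3 bp, between chr6:51123074-51123272 (Meis, 11.8) and chr6:51122892-51123076 (Prep, 63.7). Just outside, a gap of 11 bp parted chr5:135662778-135662949 (Meis, 9.89) from chr5:135662961-135663136 (Prep, 128), and one of 27 bp parted chr2:27395315-27395507 (Meis, 17.7) from chr2:27395535-27396496 (Prep, 28.9). In all, 11 Meis-only peaks had a Prep peak less than 100 bp from their edge.

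The 3 sites with more than 1 partner were of 2 forms. On chromosome 17 the Meis peak at chr17:17141911-17142089 (10.3) bridged Prep peaks at chr17:17141801-17141983 (105) and chr17:17141988-17142156 (67.0). On chromosome 19 the Meis peak at chr19:12039756-12040016 bridged a second Prep peak at chr19:12039689-12039874 (121) beside the one with 301. In both, a weak Meis peak lay across the gap of a strong Prep doublet. On chromosome 3 the reverse was seen, with 1 weak Prep peak at chr3:37815923-37816222 (5.25) across Meis peaks at chr3:37815856-37816118 (16.5) and chr3:37816173-37816436 (12.7).

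Shared Prep peaks were about as wide as Prep-only peaks of the same score. Over the 11 score levels with at least 8 peaks of each kind, the median width of shared peaks differed from that of Prep-only peaks by -9.5 to 9.5 bp. At 5.25 the medians were 300 bp for 81 shared and 304 bp for 409 Prep-only peaks. At 10.5 they were 254 bp for 11 and 250 bp for 66. From 97.2 upwards they were 163 bp for 19 and 166 bp for 411. Shared Meis peaks, in contrast, were narrower than Meis-only peaks in each of 5 slices of the Meis list by score, by 4 to 18 bp. In the lowest slice the medians were 197 bp for 25 shared and 215 bp for 1113 Meis-only peaks, and in the highest they were 191 bp for 190 and 202 bp for 945. These slices still span a range of scores, which was 14.7 to 75.1 in the highest.

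Within 100 kb, shared sites had further Prep peaks around them about as often as Prep-only peaks did, and more often than Meis-only peaks did. With their own partners left out, 211 of 407 shared Meis peaks had another Prep peak within 100 kb (51.8%, 47.0 to 56.7%), beside 25.3% of Meis-only peaks. For Prep-only peaks the share with another Prep peak within this distance was 53.5%. Another Meis peak was within 100 kb of 239 shared Meis peaks (58.7%, 53.9 to 63.4%) and of 55.6% of Meis-only peaks. Within 10 kb it was 75 (18.4%, 14.96 to 22.5%) beside 13.5%. Among Meis high peaks, the share with another Meis peak within 100 kb was 110 of 149 for shared ones (73.8%, 66.2 to 80.2%) beside 58.7% for Meis-only ones. Among the other Meis peaks it was not higher for shared ones, at 129 of 258 beside 55.3% for Meis-only ones. From the Prep side, 239 of 408 shared Prep peaks (58.6%, 53.7 to 63.3%) had another Meis peak within 100 kb, beside 38.7% of Prep-only peaks.

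Shared sites had more Prep neighbours than Meis-only peaks both within the highest-scoring 10% of the Meis list and outside it. Among Meis high peaks, 81 of 149 shared ones had another Prep peak within 100 kb (54.4%, 46.4 to 62.2%) against 28.4% of Meis-only ones. Among the other Meis peaks it was 130 of 258 (50.4%, 44.3 to 56.4%) against 25.1%. Within 10 kb the shares were 32 of 149 (21.5%, 15.6 to 28.7%) against 3.9%, and 32 of 258 (12.4%, 8.92 to 17.0%) against 4.19%. By the rule, each shared Meis peak lies on a Prep peak and no Meis-only peak does. Compared with Prep-only peaks there was no such excess. Another Prep peak was within 10 kb of 68 of 408 shared Prep peaks (16.7%, 13.4 to 20.6%) and of 17.2% of Prep-only peaks.

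The shares with a nearby Meis peak ranged more widely over the kinds of pair. Within 100 kb of another Meis peak lay 31 of the 40 sites high in both lists (77.5%, 62.5 to 87.7%) and 79 of 109 with a high Meis and low Prep score (72.5%, 63.4 to 80.0%). It was 88 of 159 for sites low in both (55.3%, 47.6 to 62.9%) and 41 of 99 Meis peaks for sites with a high Prep and low Meis score (41.4%, 32.2 to 51.3%). The corresponding shares of Meis-only peaks were 58.7% in the highest-scoring 10% and 55.3% in the remainder. The lowest share was thus that of the sites with a high Prep score and a Meis peak outside the highest-scoring 10%, and its interval overlapped that of the sites low in both.

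**Figure D5:**
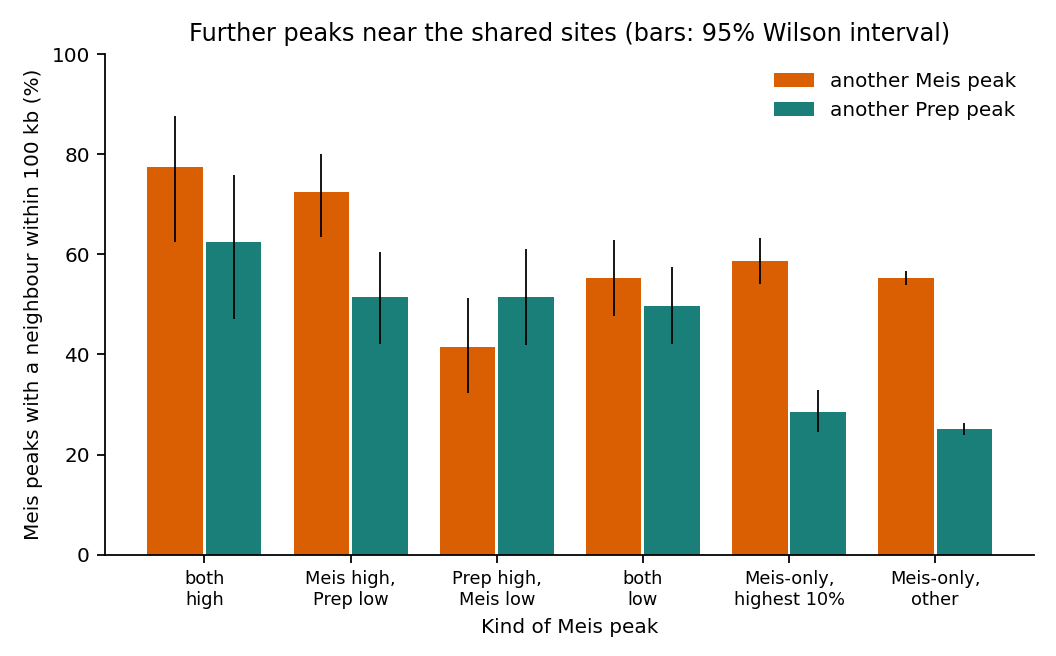
For each kind of Meis peak (x axis) the bars give the percentage with another Meis peak or another Prep peak within 100 kb, own partners left out, with 95% Wilson intervals. Bars for Prep neighbours stand at 49.7 to 62.5% in the 4 kinds of shared site and at 28.4 and 25.1% in Meis-only peaks.

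Most shared sites were single, but some formed groups. With steps of up to 100 kb between centres, 326 stood alone, 24 groups held 2 and 9 groups held 3 or more, with 33 shared sites in all. These groups were picked after their values were seen. Another shared site was within 100 kb of 81 shared sites (19.9%, 16.3 to 24.1%), beside 7.63% of Meis-only peaks.

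The groups were of both score kinds. Between chr6:52111068-52111290 and chr6:52161708-52161884 lay 4 shared sites, all with Meis scores of 20.1 to 43.1 and Prep scores of 5.25 to 7.22. On chromosome 18, 3 shared sites within 7.56 kb, from 84248460 to 84256016, had Meis scores of 22.1 to 50.8 and Prep scores of 5.25 to 7.22. On chromosome 11, from 96132510 to 96211744, 4 sites had Meis scores of 22.5 to 30.8 and Prep scores of 5.25 to 13.1. In these stretches strong Meis peaks had Prep partners that were nearly all weak, but many Meis peaks had none: 4 of 16, 3 of 5 and 4 of 13 were shared, in the order given. The opposite was seen on chromosome 11 from 120078407 to 120094170, where 3 Meis peaks of 8.96, 10.9 and 14.7 met Prep peaks of 39.4, 123 and 68.3.

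Mixed groups were found as well. On chromosome 14, from 22711135 to 22813808, 5 of 9 Meis peaks were shared, with Meis scores of 17.5 to 63.4 and Prep scores of 7.22 to 27.6. The strongest of them, chr14:22723043-22723213, was the sixth Meis peak of its list and met chr14:22723135-22723477 (Prep, 27.6). On chromosome 8, from 28071867 to 28119834, 5 of 6 Meis peaks were shared, with Meis scores of 10.7 to 36.9 and Prep scores of 5.25 to 13.1. On chromosome 6, from 51027155 to 51123272, 3 of 5 were shared, with Prep scores of 5.91, 40.7 and 63.7.

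Pairs were found on 20 chromosomes, and on 19 of them the Prep high share of the pairs was below that of the Prep list on the same chromosome. On chromosome 18 it was 0 of 14, which allows up to 21.4% by the limit of 3 counts, beside 37 of 80 listed Prep peaks (46.2%). On chromosome 4 it was 6 of 36 (16.7%, 7.87 to 31.9%) beside 48.8%, and on chromosome 10 it was 4 of 23 (17.4%, 6.98 to 37.1%) beside 48.8%. The exception was chromosome 17, with 12 of 19 (63.2%, 41.0 to 80.9%) beside 58.0%. Chromosome 11 held the most pairs, 39, and 11.6% of its Meis peaks were shared (8.58 to 15.4%). Chromosome 12 had 10 pairs and 3.40% shared (1.86 to 6.15%).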

How the data were processed

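Peak lists of 2 ChIP-seq libraries were used (Meis and Prep, 1 library per antibody), without the input libraries. The authors aligned reads with BWA against mm9, per the submitters' processing notes. Peaks carry the tag "pics" in their names, per the file headers and columns. Filters and the settings of the caller were not given in the sources used here, nor was its use of the input. Each deposited value is a score per peak, the authors' own, used to order peaks within its list. Starts were raised by 1 on the assumption of BED positions. Places are ranks of the score, equal scores sharing the better place. Pairs, classes and intervals were computed with Python 3.11.15, numpy 2.4.6, pandas 2.3.3 and scipy 1.17.1, and the pairing was tested on simulated lists. The members and classes were chosen with earlier results of these data known. Named pairs are the 6 strongest of each kind, pairs sharing a peak and those at the thresholds; any others were picked after their values were seen. No test was planned, since each antibody has 1 library. Planned comparisons of sequence content and of positions relative to genes were not run, for lack of an mm9 sequence and annotation among the references used. Alternatives were other overlap rules, peaks set to 200 bp, autosomes only, stricter lists and other score splits.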

Additional observations from a re-analysis of the deposited data

How the results depend on the processing

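No paired analysis was possible because each antibody has 1 library. Of 104 values recomputed for 18 results under 10 alternatives, 86 stayed within 1.5 times a count or within the interval of a median or share, and 18 moved. Moves follow from how each alternative is built, except that of the median Meis score under a higher Prep threshold. In the highest-scoring 50% of each list 97 Meis peaks were shared. With the highest-scoring 50% of the Prep list, 40 Meis high and 101 Meis low pairs were left, with median Prep scores of 15.1 and 29.5. These are the Prep high pairs of the main split, because the median of the Prep list is 10.5. That alternative therefore repeats the split and is no separate check. A Prep threshold at the upper quartile left 51 pairs at or above it. Their median Meis score was 11.0, beside 13.0 (11.7 to 14.2) in the pairs at or above 10.5. For pairs below the threshold it was 14.6 beside 14.9. The Meis score is not used by this split, so the lower median above the quartile is not built in. A Meis split at the highest-scoring 50% gave 309 high and 100 low pairs, and kinds of 97 (both high), 212 (high Meis, low Prep), 44 (high Prep, low Meis) and 56 (both low). With centres within 50 bp, 104 pairs were low in both, the whole Meis peak was covered in 66.2%, and median centre distances were 18.5 bp over all pairs, 18.5 bp below and 19 bp at or above the Prep threshold. That alternative limits the distance it measures, so its medians say nothing of the difference between the Prep classes. The alternatives for sequence content and position relative to genes were not run. Read depth is unknown, so no error can be given for a single score.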
